A study of Mus musculus with 12 samples.

Results

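Plekhd1, Plekhd1os, Fam19a2, Gm28548, Rims4 and Adam11 are 6 of the 54232 gene identifiers in the count table of mouse livers with and without hepatocyte Marchf6. They were listed because 5 of them had almost no reads in wild-type (WT) livers. Adam11 was listed as a gene of low level, though its WT level per kilobase of exon, at percentile 44.7, was near the median of the genes tested. All 6 had more reads in every liver of the Marchf6 LKO mice than in any WT liver, which the list asked for. The members were thus chosen by their reads in WT and LKO livers, and the difference between genotypes is described here without a test. RNA was sequenced from the whole livers of 6 WT and 6 Marchf6 LKO mice, male, on a C57Bl/6J background, 10 weeks old, fed standard chow and fasted for 4 h. LKO animals carried floxed Marchf6 alleles and AlbuminCre, a Cre under the albumin promoter, and the paper calls the knockout specific to hepatocytes. Deletion in other liver cells was not checked here. The WT animals carried the floxed alleles without Cre. MARCHF6 is a ubiquitin ligase of the endoplasmic reticulum membrane that marks proteins, among them enzymes of sterol synthesis, for degradation by the proteasome.

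The members have unlike functions. RIMS4 is a short member of the RIM proteins, which organise the presynaptic active zone where neurons release transmitter, and it is best known from brain. ADAM11 belongs to the ADAM family of membrane proteins but lacks protease activity, is known mainly from the nervous system, and is related to the receptors of secreted LGI proteins. FAM19A2, also called TAFA2, is a small secreted chemokine-like protein, likewise best known from neurons. PLEKHD1 carries a pleckstrin homology domain, a fold that in many proteins binds membrane lipids, and a coiled coil. Plekhd1os is a transcript on the strand opposite to Plekhd1, and Gm28548 is annotated as a long intergenic noncoding RNA.

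The 6 genes lay, by GENCODE M21 (GRCm38), on 5 chromosomes, none of them chromosome 15, which holds Marchf6, or chromosome 5, which holds Alb. Plekhd1 spans chr12:80692591-80724214 on the plus strand and Plekhd1os chr12:80686370-80692466 on the minus strand, so both read away from a gap of 124 bases. RefSeq draws Plekhd1os to chr12:80686375-80693952, which overlaps Plekhd1 by 1352 bases. The strand setting of the counting is not given in the sources used here, so reads from a stretch shared by the pair cannot be assigned to one of them. Fam19a2 lies at chr10:123263996-123741204 on the plus strand, Gm28548 at chr9:104361832-104385031 on the plus strand, Rims4 at chr2:163859751-163918683 on the minus strand and Adam11 at chr11:102761439-102780262 on the plus strand. Rims4 ends 4 bases from the end of Kcnk15, a potassium channel gene without a read in any liver.

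To show where transcription of the members begins, the 250 bases before their RefSeq start sites are shown, together with those of Acpp, the neighbour of Gm28548 described further on. RefSeq (GRCm38.p6) gave a promoter for 4 of the 6 members. Each is written 5′ to 3′ on the strand of the gene, with matches to the searched motifs in capitals. The window of Plekhd1 takes in the start of Plekhd1os as GENCODE draws it. The windows of Fam19a2, Plekhd1 and Acpp end inside these genes as GENCODE draws them.
Plekhd1, chr12:80692351-80692600, plus strand: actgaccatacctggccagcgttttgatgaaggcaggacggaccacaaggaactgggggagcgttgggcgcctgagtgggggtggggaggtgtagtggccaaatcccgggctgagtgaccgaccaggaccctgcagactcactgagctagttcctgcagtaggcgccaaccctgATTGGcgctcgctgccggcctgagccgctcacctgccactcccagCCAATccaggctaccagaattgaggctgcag
Plekhd1os, chr12:80693953-80694202, minus strand: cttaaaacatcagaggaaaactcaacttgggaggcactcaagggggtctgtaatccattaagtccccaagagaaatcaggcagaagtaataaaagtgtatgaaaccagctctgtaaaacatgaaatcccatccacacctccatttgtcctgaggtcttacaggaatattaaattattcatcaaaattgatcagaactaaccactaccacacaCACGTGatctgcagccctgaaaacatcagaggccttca
Fam19a2 (Tafa2 in RefSeq), chr10:123263826-123264075, plus strand: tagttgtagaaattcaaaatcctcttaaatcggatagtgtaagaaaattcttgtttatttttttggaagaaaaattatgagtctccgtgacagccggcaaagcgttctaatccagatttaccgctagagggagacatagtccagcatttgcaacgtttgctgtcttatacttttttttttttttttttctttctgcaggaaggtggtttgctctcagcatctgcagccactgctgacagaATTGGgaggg
Gm28548, chr9:104361581-104361830, plus strand: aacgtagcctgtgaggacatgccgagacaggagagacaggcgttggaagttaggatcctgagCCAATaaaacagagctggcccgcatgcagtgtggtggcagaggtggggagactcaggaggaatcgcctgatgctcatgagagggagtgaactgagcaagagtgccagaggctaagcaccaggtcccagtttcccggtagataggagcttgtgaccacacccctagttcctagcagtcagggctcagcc
Acpp, chr9:104337723-104337972, minus strand: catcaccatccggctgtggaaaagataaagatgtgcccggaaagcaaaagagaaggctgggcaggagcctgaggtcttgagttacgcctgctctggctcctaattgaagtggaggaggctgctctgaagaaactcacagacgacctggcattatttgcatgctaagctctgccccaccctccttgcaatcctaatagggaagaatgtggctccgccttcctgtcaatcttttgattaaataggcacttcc

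These windows were searched on both strands for 11 motifs: the TATA box TATAAA, the CCAAT box CCAAT, the GC box GGGCGG, the E-box CACGTG, the cAMP response element TGACGTCA, the AP-1 site TGAGTCA, the antioxidant response element core TGACNNNGC, the sterol regulatory element TCACCCCAC, the HNF4A site CAAAGTCCA, and nuclear receptor repeats of the LXR type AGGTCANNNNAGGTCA and the PPAR type AGGTCANAGGTCA. CCAAT stood in 3 of the windows. Plekhd1 held it at positions -76 to -72 on the opposite strand and at -31 to -27, counted back from the RefSeq start site, Fam19a2 at -10 to -6 on the opposite strand, and Gm28548 at -188 to -184. The match of Fam19a2 lies after the start that GENCODE gives. Among all 32851 RefSeq promoters of the same length, 33.8% hold CCAAT. The E-box stood in the Plekhd1os window at -38 to -33 and is held by 6.02% of all promoters. The other motifs did not occur in the 5 windows. Their shares of all promoters were 32.7% for the GC box, 12.4% for the TATA box, 10.2% for the antioxidant core, 4.46% for the AP-1 site, 1.55% for the cAMP element, 0.496% for the sterol element, 0.384% for the HNF4A site, 0.0335% for the PPAR repeat and 0.0152% for the LXR repeat. The windows did not share a base composition. GC content was 62.8% for Plekhd1, 56.8% for Gm28548, 41.2% for Plekhd1os and 38.8% for Fam19a2, against a median of 52.4% over all promoters.

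Total counts ranged from 14860414 to 19013181 in WT and from 15242214 to 22111926 in LKO livers. After scaling by TMM, values are given as normalized CPM, reads divided by the effective size of the library. Marchf6, under its older symbol March6, had 3273 to 4497 reads in WT and 3432 to 5787 in LKO livers, or 241 ± 8.36 and 226 ± 16.5 CPM (SD, n = 6). With edgeR's quasi-likelihood test and Benjamini-Hochberg adjustment its log2 fold change was -0.09 (SE 0.060, adjusted p = 0.585). Counts over the whole gene include reads outside the deleted part, so they do not check the deletion. Markers of hepatocytes summed to 104772 to 125185 CPM in WT and 97265 to 104802 CPM in LKO livers, as liver tissue should hold. Over the 17509 genes tested, 48 were higher (0.274%) and 27 lower (0.154%) in LKO livers at an adjusted p under 0.05 (edgeR, Benjamini-Hochberg), and 2047 (11.7%) had an unadjusted p under 0.05.

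Plekhd1 was the member with the most reads among the near-silent ones. WT livers 1 to 6 had 0, 2, 0, 3, 1 and 0 reads of Plekhd1, and LKO livers 1 to 6 had 93, 68, 75, 68, 65 and 64. The lowest LKO liver thus stood far above the highest WT liver, by more than the whole range of the LKO livers. In CPM the means were 0.0620 ± 0.0828 in WT and 3.89 ± 0.665 in LKO livers (SD, n = 6). The 433 LKO reads set against 6 WT reads gave a 61.7-fold ratio of rates per normalized library, with a 95% interval of 28.1 to 169 (exact binomial, for counting error only).

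Plekhd1os had a single read over all WT livers, in WT liver 6. The LKO livers had 8, 3, 10, 3, 7 and 7 reads. The groups did not overlap, although at this depth 2 LKO livers held no more than 3 reads. The ratio of rates was 32.5, with a 95% counting interval of 5.49 to 1317, so its size is hardly fixed. In the LKO livers Plekhd1os reads amounted to 4.41% to 13.3% of those of Plekhd1, with a median of 9.69%.

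Fam19a2 had 0, 1, 2, 1, 0 and 0 reads in the WT livers and 14, 10, 8, 16, 32 and 7 in the LKO livers. LKO liver 5 was the highest and LKO liver 6 the lowest, and no WT liver reached it. Mean CPM was 0.0422 ± 0.0518 in WT and 0.742 ± 0.362 in LKO livers. The ratio of rates was 18.6, with a 95% counting interval of 7.01 to 69.8.

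Gm28548 had a few reads in each WT liver, 1, 8, 8, 3, 1 and 1. The LKO livers had 42, 42, 46, 40, 67 and 52. All LKO livers lay well above the pair of WT livers with 8 reads. Mean CPM was 0.228 ± 0.210 in WT and 2.57 ± 0.371 in LKO livers, and the ratio of rates was 11.2, with a 95% counting interval of 7.28 to 18.2.

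Rims4 had 2, 5, 2, 1, 1 and 1 reads in the WT livers and 23, 21, 22, 13, 19 and 14 in the LKO livers. WT liver 2 was the highest of its group and remained below the lowest LKO liver. Mean CPM was 0.124 ± 0.0907 in WT and 1.01 ± 0.284 in LKO livers. The ratio of rates was 7.98, with a 95% counting interval of 4.39 to 15.9.

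Adam11 differed from the other members in being expressed in both groups. The WT livers had 99, 126, 155, 141, 135 and 113 reads and the LKO livers 333, 258, 323, 388, 404 and 318. Mean CPM was 7.99 ± 1.32 in WT and 18.0 ± 2.24 in LKO livers, a ratio of means of 2.26, or 1.17 on the log2 scale. The lowest LKO liver had 1.57 times the CPM of the highest WT liver.

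**Figure D1:**
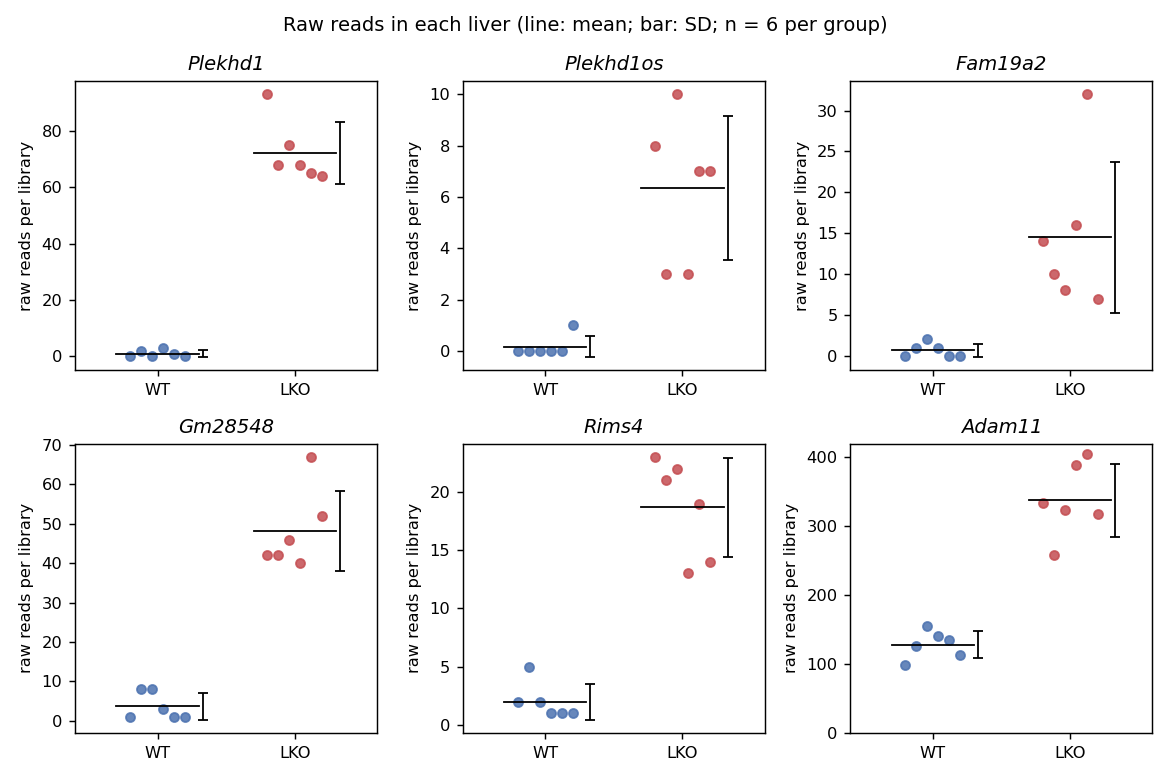
Raw reads of the 6 members in each liver, with WT and LKO on the x axis, 1 point per liver, a line at the group mean and a bar for the SD (n = 6 per group); the y axes differ between panels. In every panel the LKO points lie above all WT points, from 3 to 10 reads for Plekhd1os up to 258 to 404 reads for Adam11.

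All 6 members passed the filter on low counts, 3 of them with at most 3 reads in every WT liver. Their CPM did not overlap between genotypes, which the rule required and which held for 131 of the 17509 genes tested in the upward direction (0.748%) and for 97 in the downward direction (0.554%). For the raised members, more cells of a type and more RNA per cell cannot be told apart in these whole-liver samples. With every library thinned to 14860414 reads, the total of the smallest, LKO livers kept 45 to 65 reads of Plekhd1 against 0 to 3 in WT livers, and 12 to 20 reads of Rims4 against 1 to 3.

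Levels of different genes were compared per kilobase of merged exon. In LKO livers Gm28548, whose exons merge to 409 bases, was the highest with 6.27 ± 0.907 CPM per kb (SD, n = 6). Adam11 followed with 3.18 ± 0.395 CPM per kb and Plekhd1 with 0.988 ± 0.169 CPM per kb, and the livers of these 3 genes did not overlap with each other. Plekhd1os had 0.353 ± 0.156, Rims4 0.204 ± 0.0572 and Fam19a2 0.158 ± 0.0772 CPM per kb, and these last 3 levels overlapped from liver to liver. Among the genes tested, the LKO level of Gm28548 stood at percentile 74.0, Adam11 at 60.3, Plekhd1 at 38.6, Plekhd1os at 23.1, Rims4 at 15.8 and Fam19a2 at 12.7. In LKO livers 4 of the 6 were thus below the median of the genes tested. In WT livers Adam11 had 1.41 ± 0.233 and Gm28548 0.557 ± 0.514 CPM per kb, with overlapping livers, and stood at percentiles 44.7 and 30.4. The other 4 lay below percentile 1 of the genes tested, at 0.674 for Rims4, 0.228 for Plekhd1, 0.109 for Plekhd1os and 0.0514 for Fam19a2. They were chosen for few WT reads, and they passed the filter on low counts only with their LKO reads. Most genes as silent in WT livers were not tested, so these low WT ranks follow from the choice and the filter.

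**Figure D2:**
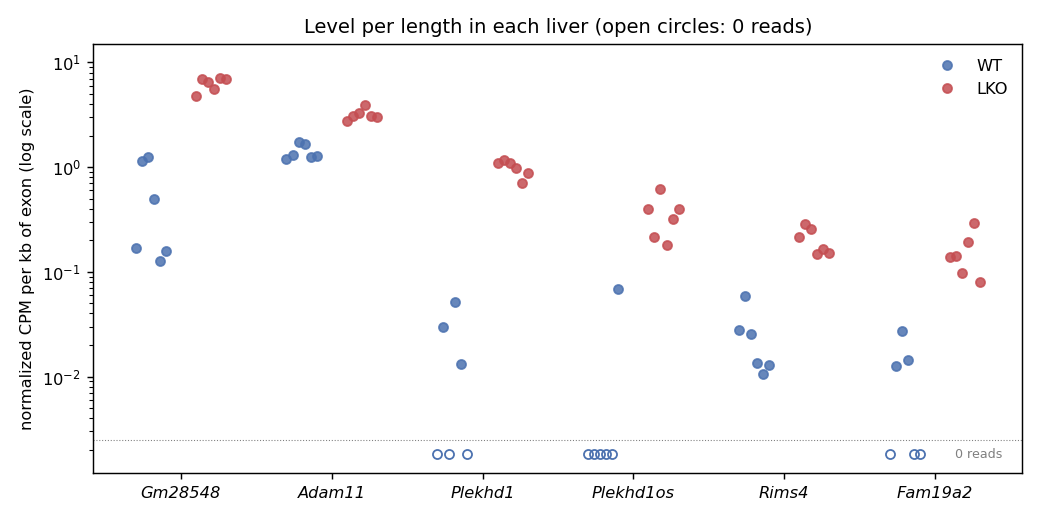
Level per length of each member in every liver, as normalized CPM per kilobase of merged exon on a log scale, with WT in blue and LKO in red and open circles for livers with 0 reads. Gm28548 and Adam11 are the highest in both genotypes, while Plekhd1 in LKO livers reaches 0.988 CPM per kb on average from a WT level near 0.

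The LKO livers were then compared with one another. The rule had set only that each of them exceed the WT livers, not how they vary among themselves. The variance of reads scaled to the mean library, divided by their mean, is 1 for pure counting error. It was 1.01 for Gm28548, 1.22 for Plekhd1os, 1.50 for Rims4, 2.14 for Plekhd1, 3.33 for Fam19a2 and 5.25 for Adam11. For Adam11 the value in WT livers was 3.51. At an equal relative spread this ratio grows with the number of reads, so it does not rank the genes by relative spread. The SD as a share of the mean, counting error included, was lowest for Adam11 in LKO livers, at 12.4%. It was 14.5% for Gm28548, 17.1% for Plekhd1, 28.1% for Rims4, 44.1% for Plekhd1os and 48.8% for Fam19a2. With 6 livers and no interval these values are a description.

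Whether members varied together from one LKO liver to another was tested over their 15 pairs. Over the 6 LKO livers, 0 of the 15 pairs of members passed an exact permutation test of log2 CPM (two-sided, Benjamini-Hochberg over the 15 pairs), and no pair had an unadjusted p under 0.05 by Pearson or Spearman. The highest correlation was between Plekhd1 and Rims4, with Pearson's r of 0.73 (exact permutation p = 0.0958, adjusted p = 0.979) and Spearman's rho of 0.77 (exact permutation p = 0.103, adjusted p = 0.771). Without the 2 livers farthest from the median of Plekhd1, r was 0.97. With 2 livers left out in this way for each pair, r ranged from -0.91 for Gm28548 and Adam11 to this value, so it rests on few livers. The lowest was between Plekhd1os and Fam19a2, with r of -0.53 (exact permutation p = 0.300, adjusted p = 0.979) and rho of -0.77 (exact permutation p = 0.103, adjusted p = 0.771). Single livers moved these values widely: with 1 LKO liver left out, the lowest r of any pair reached -0.99 without LKO liver 1 and the highest 0.90 without LKO liver 5. In each case 0 pairs passed the adjusted test. With 1 liver fewer the permutations are too few for a lone pair to pass after adjustment over 15 pairs, so these counts decide nothing. Plekhd1 and its opposite-strand neighbour Plekhd1os had r of 0.02 (exact permutation p = 0.979). In 7 of the 15 pairs r was above 0. With 6 livers the exact test of Spearman's rho can reach p = 0.00278 at best, and that of Pearson's r is likewise limited by the number of permutations. Only a strong relation gives such values, so weaker ones were not detectable.

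The genes around the members were tested next, since they had no part in the choice. Within 200 kb of a member lay 66 other genes, of which 22 had enough reads to be tested, 19 of them protein-coding. Acpp, next to Gm28548, was higher in LKO livers, and 0 of the 22 were lower (edgeR, adjusted p under 0.05), against 0.274% and 0.154% of all genes tested. At an unadjusted p under 0.05 there were 3 (13.6%), namely Acpp, Slc39a9 and Stk4, beside 11.7% of all genes tested. The median size of the log2 fold change was 0.125 for the neighbours and 0.133 for all genes tested.

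Around Plekhd1 and Plekhd1os, 5 genes were tested. Slc39a9, a zinc transporter gene that ends 3027 bases from Plekhd1os, had 72.4 ± 6.60 CPM in WT and 64.5 ± 4.24 CPM in LKO livers, with a log2 fold change of -0.17 (SE 0.069, edgeR adjusted p = 0.358). Erh, which encodes a small nuclear protein, had a log2 fold change of 0.20, Susd6 of -0.12 and Exd2, an exonuclease gene, of -0.03, with adjusted p (edgeR) of 0.719, 0.791 and 0.942. Ccdc177, on the far side of Plekhd1, had 3 reads over all 12 livers and was not tested.

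Beside Fam19a2, Usp15, a deubiquitinase gene, and Mon2, a gene of endosome to Golgi transport, had log2 fold changes of 0.00 and -0.02 (edgeR adjusted p = 0.999 and 0.934). Rims4 had 6 tested neighbours. Stk4, a kinase of the Hippo pathway, had 29.2 ± 1.46 CPM in WT and 25.8 ± 1.58 CPM in LKO livers (log2 fold change -0.18, SE 0.060, edgeR adjusted p = 0.248). The adenosine deaminase gene Ada had a log2 fold change of 0.36, the matricellular protein gene Ccn5 of 0.13, the protein kinase A inhibitor gene Pkig of 0.08, Tomm34 of 0.00 and Ywhab of -0.01, with adjusted p (edgeR) from 0.531 for Ada to 0.997 for Tomm34. Near Adam11 the log2 fold changes were 0.30 for the kinesin gene Kif18b, 0.28 for Gfap, an intermediate filament gene of glia, 0.18 for the connexin gene Gjc1, -0.05 for Ccdc43 and -0.05 for the splicing factor gene Eftud2, with adjusted p (edgeR) from 0.828 to 0.920. Kif18b, Gfap, Gjc1 and Ccn5 each had fewer than 70 reads over the 12 livers, with SE of 0.44 to 0.58.

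**Figure D3:**
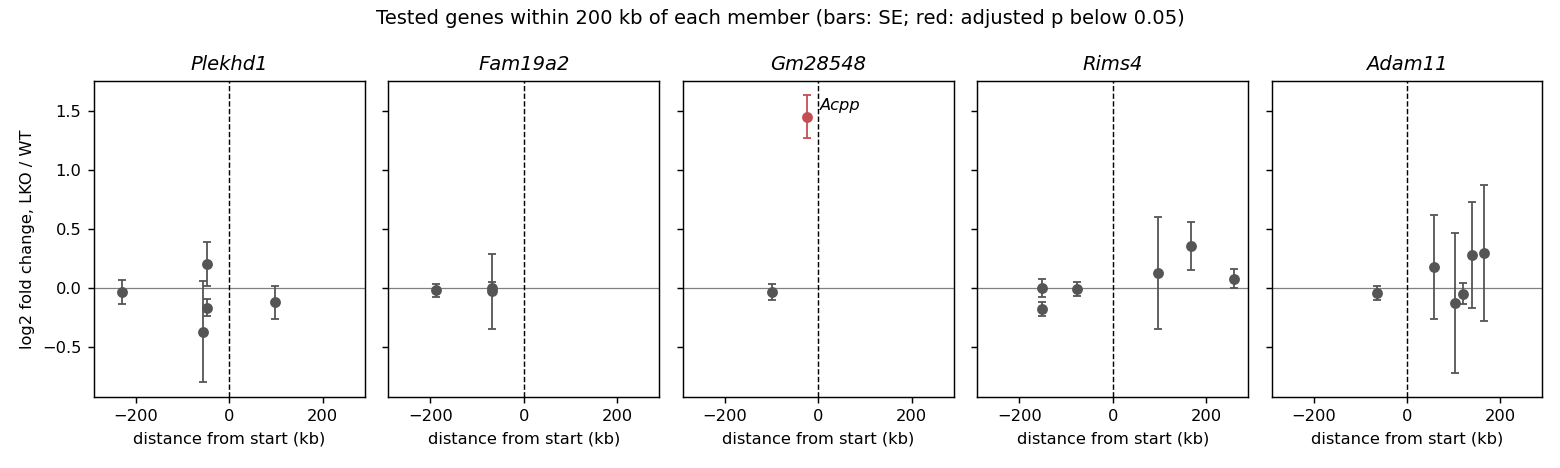
Log2 fold change (LKO over WT) of each tested gene within 200 kb of a member, against the distance in kb between the start sites, positive in the direction of the member's transcription; bars are SE and Plekhd1os shares the panel of Plekhd1. Acpp, beside Gm28548, stands at 1.45, and the other 21 lie between -0.37 and 0.36.

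Acpp encodes prostatic acid phosphatase, a phosphatase that also makes adenosine from AMP. It lies at chr9:104288251-104337748 on the minus strand, 24083 bases before Gm28548, so that both are read away from the stretch between them. WT livers 1 to 6 had 203, 345, 174, 244, 251 and 154 reads of Acpp and LKO livers 1 to 6 had 661, 734, 811, 732, 606 and 701. The groups did not overlap. Mean CPM was 14.1 ± 3.79 in WT and 38.7 ± 9.04 in LKO livers (SD, n = 6), and the log2 fold change was 1.45 (SE 0.18, edgeR adjusted p = 0.00133). Under the 19 alternative settings the adjusted p of Acpp ranged from 3.42e-11 to 0.00627. Dnajc13, an endosomal chaperone gene farther out on the same side, had a log2 fold change of -0.03 (edgeR adjusted p = 0.907). Cpne4, on the other side of Gm28548, had 0 reads in every liver.

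Within a genotype no relation between the levels of Gm28548 and Acpp passed an exact test. This relation was examined after Acpp had been seen. Pearson's r was 0.39 over the 6 WT livers (exact permutation p = 0.403) and 0.18 over the 6 LKO livers (exact permutation p = 0.744, adjusted over the 2 groups p = 0.744 for both), and Spearman's rho was 0.31 (exact permutation p = 0.564) and -0.03 (exact permutation p = 1). Without the 2 livers farthest from the median of Gm28548, r was 0.68 in WT and -0.67 in LKO livers.

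**Figure D4:**
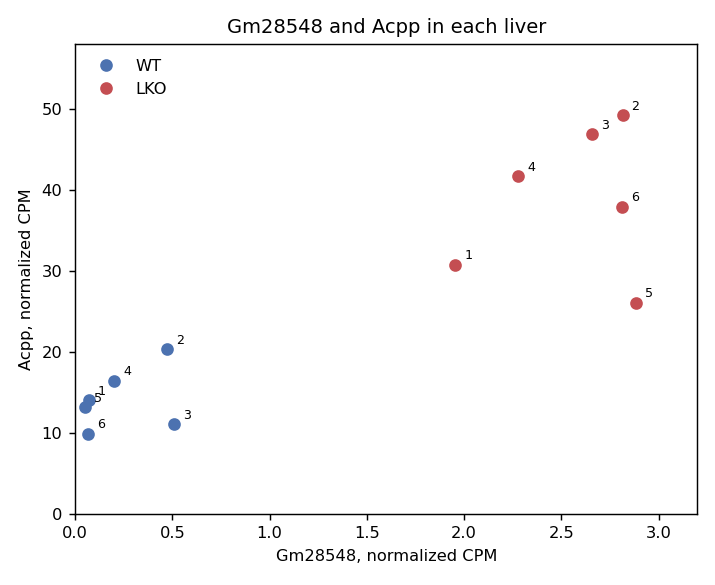
Normalized CPM of Acpp against that of Gm28548, 1 point per liver, numbered by replicate. The WT livers lie below 0.6 CPM of Gm28548 and 21 CPM of Acpp, the LKO livers above 1.9 and 26 CPM.

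The members were set among all genes of the same description. With at most 10 reads in every WT liver and a read in some liver there were 14339 genes, and in 30 of them (0.209%) the lowest LKO liver had more reads than the highest WT liver. These 30 comprise 5 members, all but Adam11, and 25 others, and 23 of the 30 are protein-coding. In the mirror count, 2 of 13736 genes with at most 10 reads in every LKO liver had more reads in every WT liver (0.0146%). The LKO libraries had the larger median total. Compared in normalized CPM, 29 genes stood apart upward and 10 downward.

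Among the 30, Plekhd1 had the highest LKO level, 3.89 CPM, and Gm28548 the second highest, 2.57 CPM. Outside the list, the noncoding RNA D830032E09Rik followed with 3 to 10 reads in WT and 12 to 44 in LKO livers. Ly9, a receptor gene of lymphocytes, had 7 to 10 and 12 to 32 reads, Phf24 6 to 9 and 11 to 31, Cd300lb, a receptor gene of myeloid cells, 4 to 8 and 11 to 23, and S100a9, a calcium-binding protein gene of neutrophils, 1 to 5 and 6 to 47. These 5 had the largest LKO CPM of the genes that were not listed, and their gaps between the groups were narrow, since the lowest LKO liver had 1 to 3 reads more than the highest WT liver. Just inside the list, Rims4 had 1 to 5 and 13 to 23 reads and Plekhd1os 0 to 1 and 3 to 10. Of the 25 others, 19 were tested and 3 had an adjusted p under 0.05 (edgeR), a count that the choice on this contrast favours. Only 3 of the 30 genes averaged over 20 reads in LKO livers. LKO liver 1 had the highest CPM in 12 of the 25 other genes and in 0 of the 5 members.

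**Figure D5:**
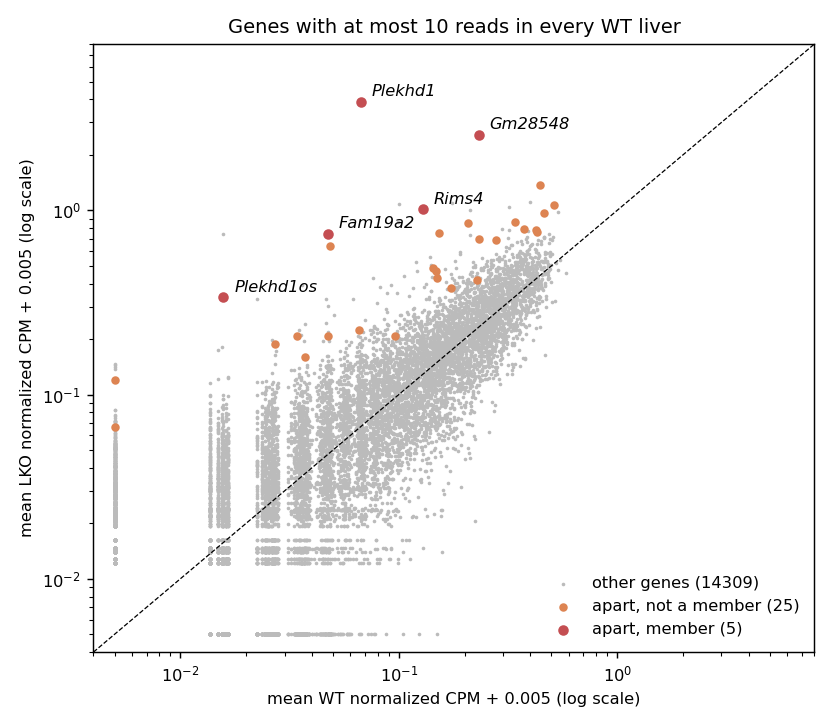
Mean normalized CPM in LKO livers against that in WT livers, both plus 0.005 on log scales, for the 14339 genes with at most 10 reads in every WT liver; the dashed line marks equal levels. The 5 members, in red, lie at or near the upper edge of the cloud, with Plekhd1 at 3.89 CPM the highest, and the 25 other genes whose LKO livers all lie above the WT livers are in orange.

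Related genes were counted to see how the families of the members behaved, with the members left out. Of 21 other genes of the presynaptic active zone, 15 were tested, and 0 were higher or lower (edgeR, adjusted p under 0.05). The most abundant were Erc1, a scaffold gene, at 41.4 ± 4.30 CPM in WT and 34.7 ± 3.03 CPM in LKO livers (log2 fold change -0.25, edgeR adjusted p = 0.211), Ppfia1 with a log2 fold change of -0.09 and Unc13b of 0.06. Among the other RIM genes, Rims3 had 1.49 ± 0.275 CPM in WT and 1.62 ± 0.393 CPM in LKO livers, Rims2 had 0.444 ± 0.296 and 0.557 ± 0.292 CPM, and Rims1 had at most 1 read in any liver. Of 15 other ADAM and LGI genes, 13 were tested and 0 called. Adam9, Adam10 and Adam17, the most abundant, had log2 fold changes of -0.05, 0.02 and -0.10. Lgi1 was at 0 reads in every liver. Fam19a5 was the only other FAM19A gene with enough reads to test, and its log2 fold change was -0.82, from 2.00 ± 0.226 to 1.13 ± 0.403 CPM (SE 0.22, edgeR adjusted p = 0.132). Fam19a1 and Fam19a3 had at most 2 and 9 reads in any liver, and Fam19a4 had 0. Of 29 other genes named for a pleckstrin homology domain, 28 were tested and 0 called, among them Plekha6, Plekhg3 and Plekha5 with log2 fold changes of -0.07 each. Over the 4 families, 5 of the 57 genes tested (8.77%) had an unadjusted p under 0.05, beside 11.7% of all genes tested, and their median log2 fold change was 0.06, against 0.00 for all genes tested.

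Markers of other cell types were read beside the members, several of which are best known from neurons. Of 33 neuronal markers 11 were tested and 0 called, and their summed level was 29.0 to 33.1 CPM in WT and 28.0 to 33.9 CPM in LKO livers. Snap25, Nefl, Gap43, Slc17a6, Slc32a1, Gria2, Elavl4, Th and Dbh were at 0 reads in all 12 livers, and 19 of the 33 had at most 3 reads in every liver. The 7 Schwann cell and glia markers summed to 1.77 to 3.68 CPM in WT and 3.02 to 4.39 CPM in LKO livers, with all 4 tested fold changes above 0 (median log2 fold change 0.38) and 0 called. Their part in the members' levels was not tested.

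Kupffer cell markers summed to 140 to 190 CPM in WT and 170 to 294 CPM in LKO livers, with all 10 fold changes above 0 and 0 called. The part of these cells in the levels of Ly9, Cd300lb and S100a9 was not tested. The sums in WT and LKO livers were 170 to 235 and 190 to 289 CPM for 9 stellate cell markers, all with a fold change above 0, 140 to 188 and 152 to 187 CPM for 7 endothelial markers, 55.2 to 89.9 and 52.2 to 150 CPM for 7 cholangiocyte markers, and 0.484 to 1.78 and 1.21 to 2.19 CPM for 6 T and NK cell markers, of which all 5 tested were above 0. The 4 mesothelial markers summed to 119 to 235 and 121 to 616 CPM, nearly all of it Krt18, a keratin gene, at 146 ± 42.6 and 225 ± 192 CPM (log2 fold change 0.62), while Msln, Upk3b and Lrrn4 had log2 fold changes of -0.55, -0.63 and -0.81. None of these passed the test. Of 6 B cell markers, the immunoglobulin heavy chain gene Ighm was lower, from 18.5 ± 3.18 to 5.40 ± 0.725 CPM (log2 fold change -1.78, SE 0.12, edgeR adjusted p = 4.06e-06), and the other 5 were not called. That was 1 of 72 marker genes tested, against 0.428% of all genes tested in either direction. At an unadjusted p under 0.05 there were 22 of the 72 marker genes (30.6%), beside 11.7% of all genes tested, and the median log2 fold change of the 72 was 0.22.

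The genes whose levels ran most like those of the members were found over the 12 livers, where the split between genotypes dominates every value, so the likeness is a description. Plekhd1 was most like Acpp, with Pearson's r of 0.95 for log2 CPM, then Gas6 (0.94), Cyp4a12a (0.93), Gpc6 (0.93) and Lekr1 (0.92). Gas6, a ligand of TAM receptor kinases, had 26.7 ± 4.05 CPM in WT and 52.0 ± 5.25 CPM in LKO livers, and Gpc6, a cell surface proteoglycan gene of the glypicans, 1.05 ± 0.164 and 4.37 ± 0.577 CPM. Cyp4a12a, a fatty acid hydroxylase gene, had 266 ± 36.6 and 401 ± 38.2 CPM. Lekr1 is itself one of the 30 near-silent genes, with 1 to 3 reads in WT and 7 to 13 in LKO livers. The mean z-score of the 6 members ran most like Gas6 (0.97), Gpc6 (0.97), G6pdx (0.96), Mr1 (0.94) and Galc (0.94). G6pdx, the gene of the enzyme that opens the pentose phosphate pathway, had 9.19 ± 5.49 CPM in WT and 56.3 ± 8.17 CPM in LKO livers, Mr1, an antigen-presenting molecule, 8.17 ± 1.20 and 18.8 ± 2.25 CPM, and Galc, a lysosomal galactosidase of sphingolipids, 8.77 ± 0.630 and 11.5 ± 0.595 CPM.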

How the data were processed

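Liver RNA of 6 WT and 6 Marchf6 LKO mice was sequenced as mRNA libraries, 1 library per mouse, and samples were grouped by the genotype in the labels. The submitters' processing notes list FastQC 0.11.15 for read quality, Trimmomatic 0.36 for trimming, HISAT2 2.1.0 for alignment to GRCm38.p6 and HTSeq 0.6.1 for counting. The authors deposited un-normalized integer counts, 1 value per Ensembl gene and library. Totals ranged from 14860414 to 22111926 per library. The libraries carried no molecular identifiers that the counts use. The intervals pool the reads of each genotype, so they cover counting error only and leave out variation between livers.

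Names and coordinates came from GENCODE M21, which held 54165 of 54232 identifiers. Where 6 or more livers had over 2 reads of a gene, it entered the test of edgeR 4.0.16 (TMM, quasi-likelihood, Benjamini-Hochberg, adjusted p under 0.05), checked on simulated data. Log2 CPM used a prior count of 0.5. A gene counted as a neighbour if its body lay within 200 kb of a member's body. Ratios of members with few WT reads are summed LKO over summed WT reads per effective library, with an exact 95% binomial interval. The lower bound against 3 reads per library that had been planned is not given, because the WT livers held reads. Covariation used exact permutations of the 6 livers.

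The members and lists were chosen with earlier results of these data known. Besides the members, the text names the tested protein-coding neighbours, the 5 other near-silent genes with the highest LKO CPM, the 5 genes most like Plekhd1 and the 5 most like the members' mean, family list genes with the highest CPM, list genes that passed the test and Marchf6. Rims1, Rims2, Rims3, the remaining FAM19A genes, Lgi1, Kcnk15, Ccdc177, Cpne4, neuronal markers at 0 reads and the mesothelial markers were named after their values were seen. Alternatives were RLE and upper-quartile scaling, other filters, limma voom (limma 3.58.1), DESeq2 1.42.0, a replicate block, other windows and read limits, and leaving out each liver. The thinning of libraries, done in 1 random draw, and the relation of Gm28548 to Acpp were added after seeing the data.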

Additional observations from a re-analysis of the deposited data

Results flagged for a closer look

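Dixon's test at its 95% critical value was applied to the 6 livers of each genotype for 39 of the named genes, members included, and for the total counts, and singled out 2 of the 76 groups tested, where chance alone gives about 3.8. Dnajc13, a neighbour of Gm28548, was highest in LKO replicate 5, with a gap of 0.631 of the range of its group. Gas6, the gene most like the members' mean, was highest in WT replicate 2, with a gap of 0.641 of the range. None of the 6 members had such a liver in the groups tested. Left out were 4 groups with at most 3 reads per liver, among them the WT livers of 3 members.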

How the results depend on the processing

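The 48 higher and 27 lower genes became 79 higher without a filter and 179 higher and 171 lower with DESeq2. Leaving out each liver in turn gave 26 to 83 higher and 12 to 49 lower genes, with the ends set by WT replicate 5 (26 and 12) and WT replicate 3 (83 and 49). The cause was not tested. Acpp was called in all 19 alternatives, with a log2 fold change of 1.37 to 1.58, and was the 1 gene called among neighbours within 100 kb (14 tested), 200 kb (22) and 500 kb (66). DESeq2 called 1 gene of the family lists, Fam19a5, lower, and 5 marker genes, Lyve1, Clec4f, Cd5l, Vsig4 and Ighm. Leaving out each liver in turn gave 1 to 2 marker genes, with 2 without LKO replicate 4, where Lyve1 joined Ighm.

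The 30 near-silent genes became 13 with at most 3 reads in WT livers and 47 with at most 20. Leaving out each liver gave 34 to 57, all including the 30, since fewer livers have to stand apart, with 55 without WT replicate 2, 52 without WT replicate 3, 57 without LKO replicate 2 and 47 without LKO replicate 6. Thinned to the smallest library, 18 remained apart, 16 of them shared with the 30 and 5 of them members.

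The direction of the members' log2 differences was fixed by the rule. With each liver left out the differences ranged from 5.69 to 6.71 for Plekhd1, 4.71 to 5.15 for Plekhd1os, 3.89 to 4.96 for Fam19a2, 3.24 to 3.89 for Gm28548, 2.81 to 3.50 for Rims4 and 1.11 to 1.24 for Adam11. Plekhd1os, with its single WT read, had 3.18 with limma voom, 3.28 as the mean log2 difference of same-numbered livers, and no ratio without WT replicate 6. Fam19a2 had 3.62 and 3.66 in these settings, both below its range with each liver left out. The correlation of same-numbered livers was from -0.19 to 0.39 and highest with the own number in 1 of 6. Pairing by number was thus not shown, but this check cannot exclude it. A replicate block gave 60 higher and 37 lower genes, of which 60 were shared with the 75 called without it, so that 15 were lost and 37 gained. It gave 1 neighbour, 0 family and 1 marker gene. Depth limits Plekhd1os, at 3 to 10 reads per LKO liver, most.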
